A study of Mus musculus with 42 samples.

Results

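The mRNA decay machinery was examined as a list of 42 mouse genes, chosen by their annotated function and matched by symbol. The list held 12 genes of deadenylation, 3 of the BTG/TOB family, 10 of decapping and 5′ to 3′ decay, 10 of the RNA exosome and 7 of nonsense-mediated decay (NMD). All 42 had reads at a polyadenylation site (PAS), out of 15324 genes with PAS reads, and they held 226 of the 83916 PAS clusters. In RNA-seq, 41 of the 42 were listed in all 4 libraries, out of 12347 genes, and Dcp1b was not listed in 1 of them.

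The 42 libraries came from established mouse cell lines that the labels give as strain C57BL/6, with no transgene or deletion named. NIH3T3 is a fibroblast line, and C2C12 is a myoblast line that was used as proliferating myoblasts (MB) or after differentiation in low-serum medium (MT). Arsenic stress (AS) was 250 µM sodium arsenite for 1 h, recovery (RC) was 4, 8, 12 or 24 h in normal medium after that hour, and non-treated cells (NT) were the control of every stress comparison. In NIH3T3, 4 libraries were RNA-seq of total RNA (2 NT, 1 AS, 1 RC4) and the rest were 3′READS, which sequences the last bases before the poly(A) tail. NIH3T3 3′READS covered total RNA of NT and AS cells (replicates 1, 2 and 4), a time course whose RC4, RC8, RC12 and RC24 libraries belong with replicate 4, and the 4-thiouridine (4sU) and flow-through (Ft) fractions of 4 cultures (2 NT, 1 AS, 1 RC4) that were all labeled for the last hour before harvest. It also covered immunoprecipitation of the RNA-binding protein TIA1 (RIP) from 2 NT and 2 AS cytoplasmic lysates, each with an input aliquot. C2C12 3′READS covered cytoplasmic RNA of MB and MT (each 2 NT, 1 AS, 1 RC4) and total RNA of unstressed MB and MT (2 libraries each). The 2 NT libraries of the RNA-seq, 4sU, Ft and C2C12 cytoplasmic sets were collected at the time of the AS and of the RC4 samples.

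Decay of a cytoplasmic mRNA usually begins with shortening of its poly(A) tail by the PAN2-PAN3 and CCR4-NOT complexes, to which TOB and BTG proteins bind. The body is then degraded from the 5′ end, after DCP2 removes the cap with the help of EDC3, EDC4, DDX6, PATL1 and the LSM1 ring and XRN1 digests the RNA, or from the 3′ end by the exosome. NMD, led by the helicase UPF1 and the kinase SMG1, sends mRNAs that terminate translation early into the same pathways.

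Libraries held 1048335 to 6974664 PAS reads in 3′READS and 17137579 to 25194062 reads in RNA-seq, and the 42 genes took 0.309% and 0.316% of the RNA-seq reads in NT, 0.295% in AS and 0.192% in RC4. Markers were summed in the libraries other than RIP. The summed level of 4 stress-response genes was 88.1 to 401.2 reads per 1000000 reads (RPM; PAS reads in 3′READS, coding-sequence reads in RNA-seq) in 15 NT libraries and 981.5 to 9061.1 RPM in 10 AS libraries, and that of 7 muscle genes was 82.2 to 282.6 RPM in MB against 13093.2 to 25094.4 RPM in MT. The 3 myoblast markers were listed at 0 in 22 NIH3T3 3′READS libraries, with RIP again left out. In C2C12 they summed to 74.9 to 173.4 RPM in MB and 174.9 to 744.3 RPM in MT. This list was thus higher in MT and did not mark the MB state. The 4 markers of other cells summed to at most 3.7 RPM. A PAS with fewer than 5 reads in a library was not listed, so a listed 0 can stand for 1 to 4 reads. The study describes the RIP lysates, the MB and MT total RNA and a pair of the NT and AS total RNA replicates as biological replicates. For the other sets no source used here says whether libraries of a group came from separate cultures, and their p-values measure the spread between these samples, which may be technical.

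The PASs at which the genes discussed most often ended are shown as the last 30 nt of the transcript, ending at the PAS (build mm9, sequence from the NCBIM37 reference, all in the last exon). Capitals mark the PAS hexamers AATAAA and ATTAAA, searched on the transcript strand only, and a match is a description of these letters. The sites of Tob1, Tob2 and Btg1 are those of the BTG/TOB genes, all of which fell in Ft against 4sU. The sites of Xrn2 and Lsm1 are those of the genes that were higher at RC4 in most sets. Cnot6, Pan3 and Patl1 were enriched in the TIA1 RIP. Exosc4 and Cnot6l are shown with both PASs of the pair whose ratio passed a test.
Xrn2, chr2:146903366-146903395, plus strand: gtttttAATAAAactacagtactttgtgta
Lsm1, chr8:26912980-26913009, plus strand: taaaaaatgattctcagaactgtcacaaaa
Btg1, chr10:96082232-96082261, plus strand: AATAAAttgtttcttatcttggcattttaa
Tob1, chr11:94076780-94076809, plus strand: gtttgtATTAAAattctttaaaATTAAAaa
Tob2, chr15:81678702-81678731, minus strand: aagtttgtATTAAAagcatgatatataata
Cnot6, chr11:49485005-49485034, minus strand: ccaaccAATAAAttcaatatctgtttcaaa
Pan3, chr5:148360043-148360072, plus strand: tattttttAATAAAgaattgcagaAATAAA
Patl1, chr19:12019431-12019460, plus strand: tgtaAATAAAacaaattgtatacttgaaaa
Exosc4 proximal PAS, chr15:76160161-76160190, plus strand: ttccagAATAAAggcctgttcttctcccga
Exosc4 distal PAS, chr15:76161076-76161105, plus strand: gaacggtATTAAAggtcagaatgttaagaa
Cnot6l proximal PAS, chr5:96502297-96502326, minus strand: gaacatggacaatattgtgctgtttaaaaa
Cnot6l distal PAS, chr5:96499352-96499381, minus strand: taggcAATAAAtggccattttgcaaccgca
Over all 38 3′READS libraries, these sites took 94.5% of the reads of Xrn2, 99.1% of Lsm1, 85.5% of Btg1, 100.0% of Tob1, 96.8% of Tob2, 81.0% of Cnot6, 92.9% of Pan3 and 86.6% of Patl1. The Exosc4 sites took 43.0% (proximal) and 56.9% (distal) of its reads, and the Cnot6l sites 48.3% and 22.0%. Among PASs with at least 10% of their gene's reads, 65.5% of 58 in the decay genes and 70.7% of 17828 in all genes held either hexamer in this window.

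Whether stress and recovery shift the decay genes was first read from the sets with 1 library per stressed group, by fold and with no test within a set. A gene was counted as higher or lower when its median-ratio normalized reads in the stressed library lay at least 1.5-fold past every NT library of its set, and folds are given against the NT mean with 95% exact binomial intervals that cover counting error only. AS and RC4 folds of a set share their NT libraries, and 4sU and Ft come from the same cultures. Normalized reads were compared within a gene only. Scaling by library totals instead moved the median of all genes at RC4 to -0.82 on the log2 scale in RNA-seq (-0.01 with median ratios), and all folds here are relative to that shift.

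At the end of 1 h of AS, the BTG/TOB genes Tob1 and Tob2, but not Btg1, were higher in RNA-seq. The other roles showed few members past the fold there. Tob1, an anti-proliferative protein that binds CCR4-NOT, had 151.2 and 90.1 normalized RNA-seq reads in NT, 445.0 in AS and 272.5 in RC4, so AS was 3.64-fold (3.13 to 4.25) above NT. Its paralog Tob2 had 317.5 and 259.7 in NT, 618.8 in AS and 285.0 in RC4, 2.13-fold (1.91 to 2.38) higher in AS. Both lay above the 2 NT libraries in AS, and Tob2 lay between them at RC4. The remaining BTG/TOB gene, Btg1, had 930.6 and 755.1 in NT and 682.1 in AS, lower but within the fold. Over the sets, Tob1 was past the fold in AS in 3 of 5 measured and Tob2 in 3 of 6. Neither was in MT, where Tob1 had 134.4 and 105.5 in NT and 118.3 in AS. Cnot4, the ubiquitin ligase of CCR4-NOT, was 1.71-fold (1.62 to 1.81) higher. In all, 3 of 41 measured members were higher and 0 lower in RNA-seq, against 5.9% higher and 2.76% lower of all 10814 genes, and the median log2 value was -0.07 for members and -0.01 for all genes.

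In newly made RNA the same hour gave more members on either side. Of 39 members measured in 4sU RNA, 4 were higher and 6 lower in AS, against 8.94% higher and 11.5% lower of all 9701 genes (3 and 7 with library totals). Tob1 had 74.1 and 76.1 normalized 4sU reads in NT and 205.7 in AS, 2.73-fold (2.17 to 3.44) higher, and Tob2 had 219.9 and 263.0 in NT and 460.7 in AS. Dcp2, the catalytic subunit of the decapping enzyme, went the other way, with 499.9 and 545.6 in NT and 204.2 in AS, 2.59-fold (2.17 to 3.11) lower. Dcp2 in AS lay below both NT libraries, as it did in the AS libraries of MB (2.38-fold, 1.57 to 3.71) and MT (1.88-fold, 1.28 to 2.82). In the time course it was 2.00-fold below the 1 NT library, with an interval of 0.893 to 4.92 that includes no change. In RNA-seq Dcp2 had 599.9 and 715.3 in NT and 596.0 in AS, and was not past the fold. The other genes lower in 4sU RNA were Edc3 (1.93-fold), Upf3b (1.88-fold), Smg5 (1.81-fold), Cnot8 (1.79-fold) and Dis3 (1.73-fold), and Dcp1a (1.97-fold) and Xrn1 (1.54-fold, interval 0.846 to 2.71) were higher.

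In pre-existing RNA and in C2C12 cytoplasm fewer members moved past the fold in AS. Of 37 members measured in Ft, 2 were higher and 1 lower, against 5.38% and 6.25% of all genes (3 and 1 with library totals): Tob1 at 10.5 and 11.4 normalized reads in NT and 42.2 in AS, 3.84-fold (2.27 to 6.6) higher, Cnot4 1.90-fold higher, and Dcp1a 1.88-fold lower with an interval of 0.759 to 5.56. Of 34 members measured in MB, Cnot4, Tob2 and Exosc10 were higher and Dcp2 and Cnot6 lower, against 13.1% of all genes past the fold in either direction. Of 35 in MT, Cnot10, Smg6 and Upf3b were higher and Dcp2 and Exosc8 lower, against 17%. These counts lay close to the share over all genes. Over the 30 members measured in all 6 sets, 1 (Cnot4) was higher and 1 (Dcp2) lower in AS in at least 4 sets, against 1.27% and 0.844% of 5805 genes. Cnot4 carries a limit, since 45.88% of its 3′READS reads lay at PASs upstream of its last exon. The other 54.12% lay at 1 PAS, 1 nt past its annotated end, and the mix differed between libraries.

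After 4 h of recovery Xrn2, the nuclear 5′ to 3′ exonuclease that acts at transcription termination, was higher than NT in all 6 sets. More decay genes were past the fold than in AS, as was so for all genes. In RNA-seq, 5.9% of all genes were higher and 2.76% lower in AS, and 22.2% and 22.1% at RC4. The members numbered 3 and 0 of 41 in AS and 5 and 10 at RC4. In RNA-seq Xrn2 had 7719.0 and 7718.7 normalized reads in NT, 7821.6 in AS and 11588.9 in RC4, 1.50-fold (1.46 to 1.54) higher. In 4sU RNA it had 74.1 and 101.9 in NT, 126.7 in AS and 320.0 in RC4, 3.50-fold (2.95 to 4.15) higher. The RC4 library was the highest of its set in both. Xrn2 was 2.27-fold (1.86 to 2.76) higher in Ft, 2.20-fold (1.62 to 2.98) in MB, 2.44-fold (1.78 to 3.35) in MT and 1.83-fold (1.24 to 2.73) in the time course. With library totals the RNA-seq log2 value of Xrn2 turned to -0.22, and the others stayed positive at 0.62 to 1.54.

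Lsm1, a subunit of the cytoplasmic LSM ring that promotes decapping, was higher at RC4 in 4 of 6 sets. Its RNA-seq reads were 787.0 and 766.6 in NT, 808.0 in AS and 1365.2 in RC4, 1.76-fold (1.62 to 1.90) higher. In 4sU RNA it had 112.9 and 140.9 in NT and 233.7 at RC4, and in Ft 89.0 and 130.1 in NT and 216.3 at RC4. In MT it had 237.6 and 182.5 in NT and 134.3 at RC4, below both NT libraries and not past the fold. Patl1, a decapping activator that binds the LSM ring and DDX6, had 1783.8 and 1731.2 in NT and 2935.8 at RC4 in RNA-seq, 1.67-fold (1.58 to 1.76) higher, a direction that turned to -0.07 (log2) with library totals.

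Dcp2 and Exosc4, a core subunit of the exosome, were lower at RC4 in 4 of 6 sets each. Exosc4 had 135.1 and 135.1 normalized RNA-seq reads in NT, 116.9 in AS and 33.6 in RC4, 4.02-fold (2.70 to 6.21) lower. It was 1.89-fold (1.58 to 2.27) lower in 4sU RNA, 1.68-fold (1.34 to 2.11) in Ft and 1.83-fold (1.54 to 2.19) in MB. Dcp2 had 242.7 normalized RNA-seq reads at RC4, 2.70-fold (2.32 to 3.15) below its NT mean, and was 1.82-fold (1.62 to 2.06) lower in 4sU RNA. In Ft Dcp2 had 136.8 and 120.4 reads in NT and 95.6 at RC4, below both NT libraries by less than the fold. It was 1.56-fold (1.02 to 2.44) lower in MB. In the time course it was low, at 21.9 normalized reads in NT (23 reads) and 13.4 at RC4. In MT Dcp2 had 60.0 and 58.9 in NT and 56.1 at RC4, near NT. Over the 30 members measured in all 6 sets, 2 were higher and 2 lower at RC4 in at least 4 sets, against 11.3% and 7.56% of 5805 genes, so the number of such members was near that over all genes.

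**Figure D1:**
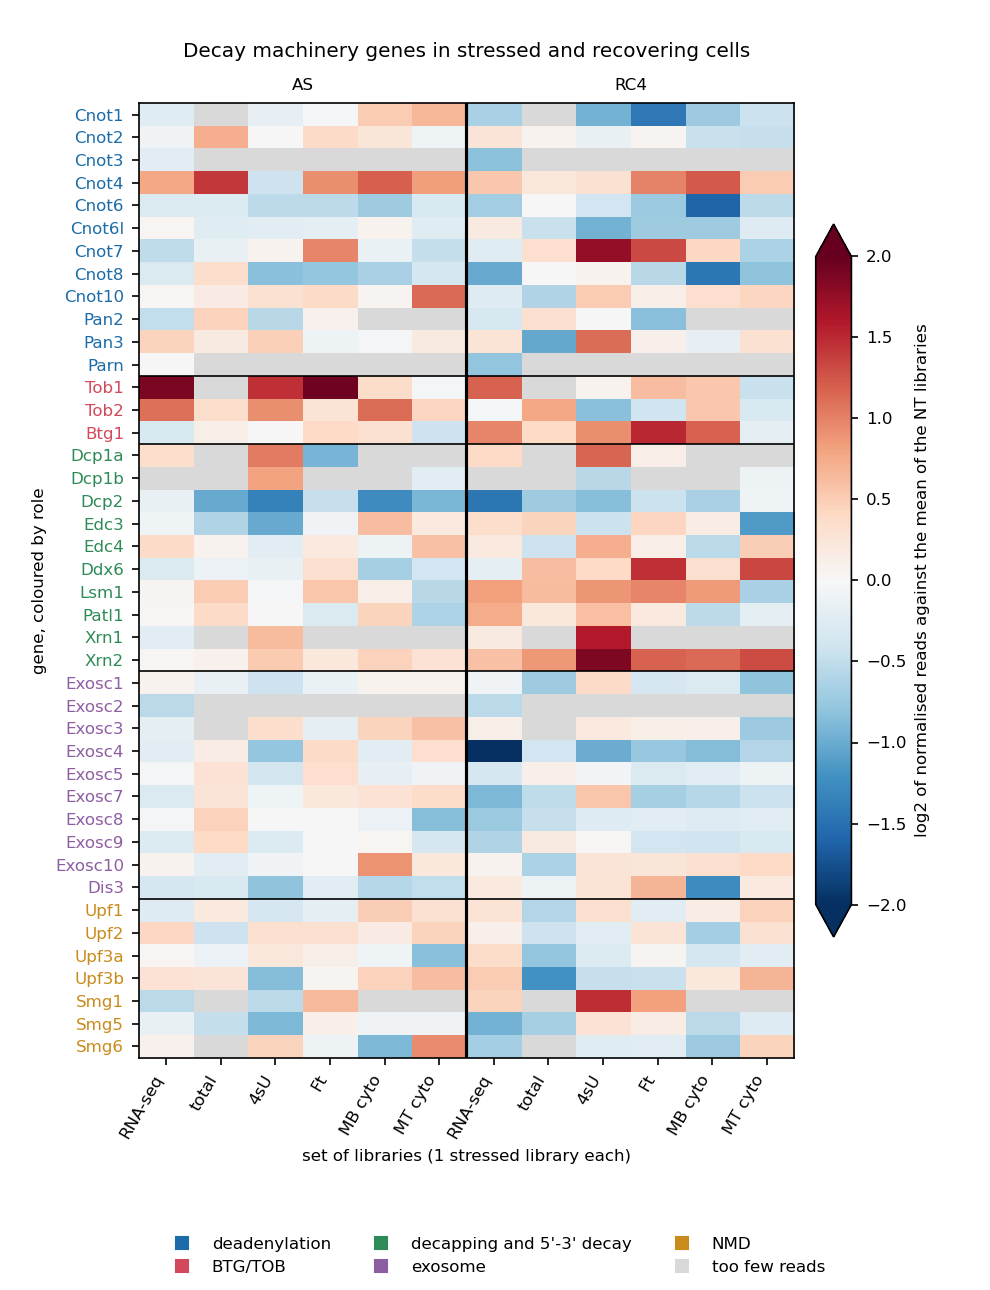
Heat map of log2 normalized reads against the NT mean of the same set, with the 42 genes in rows colored by role and AS and RC4 of 6 sets in columns; gray cells had too few reads. The Xrn2 row is above 0 at RC4 in all 6 sets (with library totals, RNA-seq Xrn2 and Patl1 turn to -0.22 and -0.07). Dcp2 is below 0 in AS in all 6 sets. It is past the fold in 4sU, MB, MT and the time course, and within it in RNA-seq (-0.142) and Ft (-0.454).

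By role, the members past the fold in RNA-seq at RC4 were as follows, with no test between roles. In all, 5 of 41 members were higher and 10 lower, against 22.2% and 22.1% of all genes, and with library totals 0 were higher and 24 lower. Of the 12 deadenylation genes 0 were higher and 4 lower: Cnot8, 1 of the paralogous deadenylase subunits, at 1969.0 and 1846.4 in NT and 953.3 at RC4 (2.00-fold, 1.85 to 2.17); Cnot3; Parn, a poly(A)-specific ribonuclease (1.73-fold, 1.54 to 1.93); and Cnot1, the scaffold of the complex, at 4419.8 and 4627.0 in NT and 2882.3 at RC4 (1.57-fold, 1.50 to 1.64). Of the 10 exosome genes 0 were higher and 3 lower, Exosc4, Exosc7 (1.85-fold, 1.57 to 2.19) and Exosc8. Of the 7 NMD genes 0 were higher and 2 lower, Smg5 (1.92-fold, 1.76 to 2.11) and Smg6. The BTG/TOB genes Tob1 (2.23-fold, 1.85 to 2.69) and Btg1 (930.6 and 755.1 in NT, 1663.9 at RC4, 1.96-fold, 1.83 to 2.11) were higher and Tob2 was within the fold. Of the 9 decapping and 5′ to 3′ decay genes measured, 3 (Xrn2, Lsm1 and Patl1) were higher and 1 (Dcp2) lower.

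The other genes with catalytic or scaffold roles stayed within the fold in RNA-seq. At RC4 Ddx6, the helicase that links CCR4-NOT to decapping, had 1843.1 normalized reads against 2132.4 and 2030.7 in NT. Xrn1 had 1535.7 against 1361.5 and 1342.7. Dis3, a catalytic subunit of the exosome, had 3280.5 against 2512.2 and 3201.6. Of these, Xrn1 and Dis3 lay above both NT libraries and Ddx6 below both. Exosc10, the nuclear catalytic subunit, had 1209.7 against 1194.2 and 1107.0, Upf1 had 1254.5 against 1172.5 and 914.3, and Smg1 had 5713.6 against 4086.2 and 4261.5. Of the deadenylase subunits, Cnot6 had 731.8 against 1033.6 and 1330.1, Cnot6l 1176.1 against 998.7 and 1067.2, and Cnot7 440.6 against 480.0 and 565.5. Upf1, Smg1, Exosc10 and Cnot6l thus lay above both NT libraries, and Cnot6 and Cnot7 below both. Dcp1b, not listed at RC4 and at 12.3 to 20.3 normalized reads in the other 3 libraries, was not measured.

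In the 4sU and Ft fractions members were past the fold at RC4 on both sides. Of 39 members in 4sU RNA 9 were higher and 5 lower, against 19% and 19.2% of all genes (5 and 5 with library totals). Beside Xrn2, the higher genes included Cnot7 at 34.1 and 53.7 normalized reads in NT and 148.1 at RC4, Xrn1 at 17.6 and 18.8 in NT and 54.7 at RC4, and Smg1 at 37.6 and 48.8 in NT and 120.4 at RC4. These 3 are low in 4sU RNA, and their intervals were 2.5 to 4.09, 2.00 to 4.47 and 2.08 to 3.50 around folds of 3.19, 2.97 and 2.70. Pan3, the partner of the PAN2 deadenylase, was 2.15-fold (1.91 to 2.41) higher and Btg1 1.98-fold (1.72 to 2.28) higher. Cnot1 (2.01-fold, 1.37 to 3.01), Cnot6l (1.92-fold, 1.70 to 2.16), Exosc4, Tob2 (1.82-fold, 1.53 to 2.18) and Dcp2 were lower. Of 37 members in Ft 7 were higher and 5 lower, against 20.1% and 18.5% (3 and 11 with library totals), with Ddx6 at 33.5 and 18.7 in NT and 71.7 at RC4 (2.81-fold, 1.93 to 4.11) and Btg1 at 27.8 and 48.8 in NT and 108.8 at RC4 (2.78-fold, 2.05 to 3.77) the highest.

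**Figure D2:**
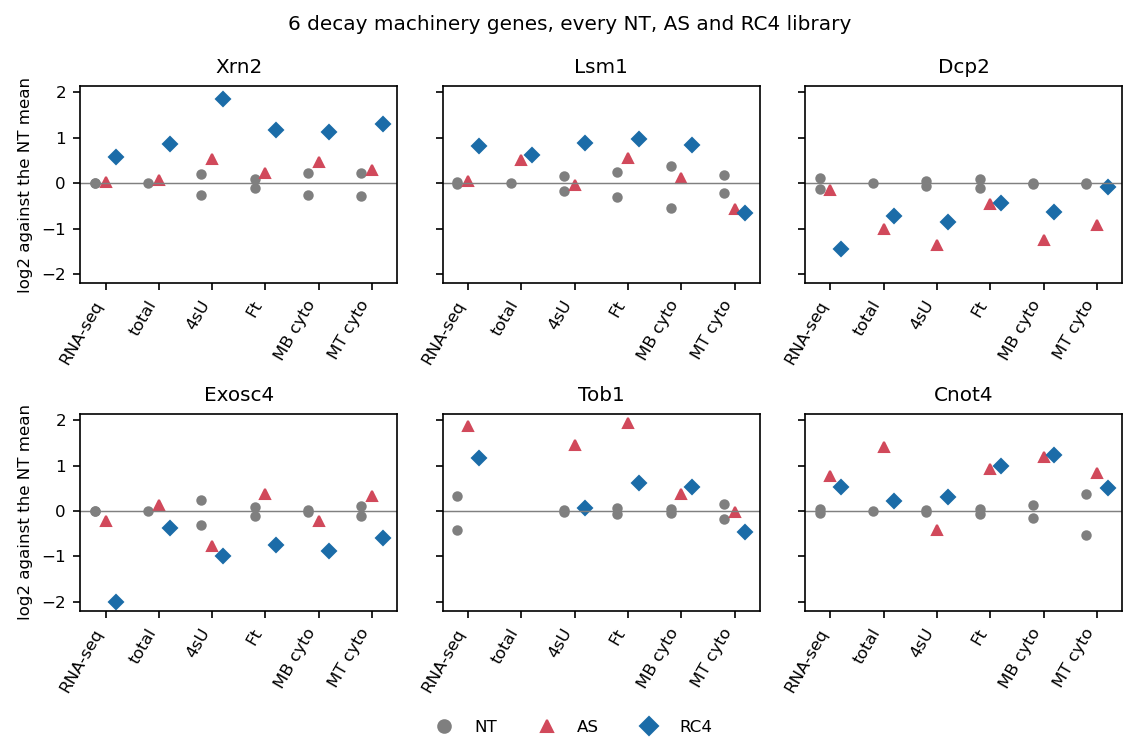
Log2 normalized reads against the NT mean for Xrn2, Lsm1, Dcp2, Exosc4, Tob1 and Cnot4 in each library of 6 sets (NT gray circles, AS red triangles, RC4 blue diamonds). RC4 lies above every NT library for Xrn2 in all 6 sets, at 1.50-fold in RNA-seq and 3.50-fold in 4sU RNA (the RNA-seq value turns to -0.22 on the log2 scale with library totals), and RNA-seq Exosc4 lies 4.02-fold below NT.

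The time course asked how long the shifts last, with 1 library per time and 1 NT library. Of 31 members measured, 4 were past the fold in AS (2 higher, 2 lower), 13 at RC4 (4 higher, 9 lower), 2 at RC8, 3 at RC12 and 8 at RC24, against 20.7%, 41.1%, 27.7%, 19.3% and 17.4% of 7854 genes in either direction. With library totals the RC4 split was 1 higher and 15 lower. The counts at the other times rest on the 1 NT library: against the mean of 3 NT libraries they were 18 in AS, 13 at RC8, 13 at RC12 and 15 at RC24, and with no filter on low reads 10 at RC8 and 7 at RC12. Xrn2 had 39.1 normalized reads in NT, 41.4 in AS, 71.4 at RC4, 51.5 at RC8, 41.5 at RC12 and 41.0 at RC24, so RC4 was the highest and RC12 and RC24 lay near NT. Upf3b, an NMD factor that bridges UPF2 and the exon junction complex, had 146.8 in NT, 175.2 in AS, 63.4 at RC4, 105.6 at RC8, 150.3 at RC12 and 112.3 at RC24, and its RC4 value was 2.32-fold (1.74 to 3.11) below NT. At RC4 in RNA-seq it went the other way, with 1110.1 and 1214.9 in NT and 1658.9 at RC4 (1.43-fold, 1.34 to 1.53, above NT), and in MT it was past the fold upward, with 78.8 and 81.7 in NT and 128.0 at RC4.

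At RC4 of the time course 4 of the 5 measured NMD genes were lower past the fold, beside 9 of all 31 members and 1640 of 7854 genes: Upf3b, Upf3a (1.73-fold, 1.07 to 2.85), Smg5 (1.58-fold, 1.25 to 2.00) and Upf1 (1.51-fold, 0.952 to 2.41). In RNA-seq at RC4, Upf3a was 1.28-fold and Upf1 1.20-fold above NT and Smg5 1.92-fold below, so Smg5 alone of these 4 was past the fold downward in both sets. Of the other roles, Pan3 was 2.02-fold (1.13 to 3.73) lower, and Xrn2 and Lsm1 (1.55-fold, 1.19 to 2.04) were higher. Tob2 (1.72-fold, 0.582 to 5.65, from 6 reads in NT and 11 at RC4) and Ddx6 (1.54-fold, 0.912 to 2.64) were past the fold with intervals that include no change. Btg1, with 37.2 reads in NT and 14.6 at RC8, was 2.55-fold (1.41 to 4.80) lower there, and 33.0 at RC24. Dcp2 had 21.9 in NT, 11 in AS, 13.4 at RC4, 24.9 at RC8, 36.0 at RC12 and 21.1 at RC24. Tob1 was listed at 0 in all 6 libraries of the time course.

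Where AS was replicated, no decay gene passed the test. In total RNA of NIH3T3 (3 pairs of NT and AS), 0 of 39 members tested passed an adjusted p of 0.05 by edgeR, against 0.0285% of 10522 genes (3 genes). At an unadjusted p under 0.05 there were 1 member and 623 genes, and DESeq2 called 0 members. That member was Lsm1, with 196, 44.6 and 60.6 RPM in NT and 233.4, 74.8 and 86.1 RPM in AS of replicates 1, 2 and 4, higher in 3 of 3 pairs by 0.49 on the log2 scale (SE 0.16, adjusted p = 0.706). The pairs differed more from each other than AS did from NT, with Lsm1 and Cnot4 several-fold higher in replicate 1. Dcp2 had 28, 20.8 and 15.5 RPM in NT and 25.6, 29.1 and 7.75 RPM in AS, lower in 2 of 3 pairs. Tob1, Dcp1a and Xrn1 had too few reads for the test.

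Cytoplasmic input of NIH3T3 (2 NT, 2 AS) gave 0 of 38 members, against 0% of 8979 genes, with 1 member and 165 genes at an unadjusted p under 0.05 and 0 members by DESeq2. That member was Tob2 (2.12 log2, SE 0.79, adjusted p = 1 by edgeR). In C2C12 cytoplasm, where 1 AS library of MB and 1 of MT were fitted together against 4 NT libraries, 0 of 36 members passed in AS, against 0.452% of 9957 genes, with 5 members and 1107 genes at an unadjusted p under 0.05 and 0 members by DESeq2. Dcp2 was the furthest of the 5, at 29.4 and 29.4 RPM in MB NT and 12.5 in MB AS, and 24.5 and 23.9 in MT NT and 12.9 in MT AS. Both AS libraries lay below all 4 NT libraries, by -1.07 on the log2 scale (SE 0.27, adjusted p = 0.165 by edgeR).

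Recovery in C2C12 cytoplasm moved 2 of the 36 members past the test, Xrn2 up and Exosc4 down, against 4.67% up and 3.9% down of all 9957 genes. Xrn2 had 22.4 and 31.3 RPM in MB NT, 37.3 in MB AS and 57.9 in MB RC4, and 13.1 and 18.5 in MT NT, 19.4 in MT AS and 38.7 in MT RC4. Each RC4 library was the highest of its state, and Xrn2 rose by 1.20 (log2, SE 0.25, adjusted p = 0.0188 by edgeR). Without MBcyto_RC4, MTcyto_RC4 or MTcyto_NT replicate 1 the value was 1.07 to 1.30 and the adjusted p 0.0532 to 0.109. Exosc4 had 191.8 and 186.6 RPM in MB NT and 100.9 at RC4, and 142.7 and 166.2 in MT NT and 101.3 at RC4, with no overlap, and fell by 0.76 (SE 0.20, adjusted p = 0.0424). Leaving out any 1 of the 8 libraries took Exosc4 over the threshold, to adjusted p of 0.0502 to 0.255.

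The deadenylase subunits Cnot8 and Cnot6 came next at RC4 without passing. Cnot8 had 17.9 and 23.2 RPM in MB NT and 7.39 at RC4, and 23.6 and 26.2 in MT NT and 14 at RC4 (-1.09 log2, SE 0.32, adjusted p = 0.0629). Cnot6 had 48.0 and 51.3 in MB NT and 16 at RC4, and 30.4 and 38.6 in MT NT and 23.8 at RC4 (-1.02, SE 0.30, adjusted p = 0.0652). In both genes each RC4 library lay below the NT libraries of its state. Read within each state by the 1.5-fold rule, 7 of 34 members were past the fold in MB RC4, against 26%, and 6 of 35 in MT RC4, against 23% of all genes.

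The Ft and 4sU fractions of 4 cultures compare pre-existing with newly made RNA, so a low Ft to 4sU ratio marks an RNA that is enriched among those made in the last hour. The decay genes leaned to the 4sU side. Of 40 members tested, 2 were higher and 16 lower in Ft, against 23.7% higher and 25.7% lower of 10848 genes, and the median log2 Ft to 4sU value was -0.51 for members and -0.05 for all genes. NT, AS and RC4 cultures entered together. Cnot3 and Parn had too few reads.

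All 3 BTG/TOB genes were lower in Ft. Tob1 had 24.6 and 25.9 RPM in 4sU NT, 68.5 in AS and 26.2 in RC4, and 4.06, 4.48, 16.2 and 6.58 RPM in Ft of the same cultures, a log2 ratio of -2.27 (SE 0.24, adjusted p = 3.14e-05 by edgeR). Tob2 had 73.1, 89.6, 153.3 and 44.9 RPM in 4sU and 21.1, 24.6, 27.1 and 17.4 in Ft (-1.90, SE 0.20, adjusted p = 3.298e-05). Btg1 had 64.9, 48.9, 56.6 and 106.7 in 4sU and 10.7, 19.2, 19.4 and 42.8 in Ft (-1.66, SE 0.23, adjusted p = 0.000128). Ft lay below 4sU in 4 of 4 cultures for each, and for these 3 genes the highest Ft library lay below the lowest 4sU library.

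Of the 10 deadenylation genes tested, 7 fell and 1 rose. Cnot6l, a catalytic subunit, had 188.4, 184.3, 157.8 and 95.2 RPM in 4sU and 52.5, 55.3, 46.6 and 33.4 in Ft, in the order NT, NT, AS, RC4 (-1.72, SE 0.15, adjusted p = 1.59e-05 by edgeR). Its paralog Cnot6 had 137.6, 173.4, 106.7 and 117.8 in 4sU and 75.7, 83.5, 54.3 and 47.9 in Ft (-1.04, SE 0.15, adjusted p = 0.000213). The fractions did not overlap in either gene. Pan3 (-1.68), Cnot1 (-1.30), Cnot4 (-1.27), Pan2 (-0.98) and Cnot2 (-0.51) also fell, and Cnot10 rose by 0.49 (SE 0.16, adjusted p = 0.0236). Cnot7 (-0.67, adjusted p = 0.0993) and Cnot8 (-0.38, adjusted p = 0.204) did not pass.

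In the decapping role 4 of 10 fell. Dcp2 had 166.1, 185.8, 68.0 and 96.0 RPM in 4sU and 52.8, 47.3, 36.0 and 37.6 in Ft (-1.50, SE 0.19, adjusted p = 8.962e-05 by edgeR). Patl1 (-1.21, SE 0.16), Ddx6 (-1.05, SE 0.26) and Xrn1 (-1.80, SE 0.69) were the others. Xrn1 was low, at 5.86 to 18.1 RPM in 4sU and 0 to 10.3 in Ft. Its reads were 15, 27, 19 and 69 in 4sU and 7, 0, 6 and 22 in Ft (NT, NT, AS, RC4). It met the read filter mainly through 4sU, and its NT and AS reads in Ft lay near the listing minimum. Its p is therefore not given and it supports nothing, although it is 1 of the 4 here and of the 16 members that fell. In NMD 2 of 7 fell, Upf2, a core factor that binds UPF1, at 136.6 to 177.6 RPM in 4sU and 39.2 to 55.9 in Ft (-1.54, SE 0.17, adjusted p = 4.338e-05), and Smg1 (-1.45, SE 0.34). Upf1 had a log2 ratio of -0.39 (adjusted p = 0.14).

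Of the 10 exosome genes 1 rose and 0 fell, with a median log2 ratio of 0.12, and no test compared the roles. Exosc5, a core subunit, had 30.9, 19.2, 19.4 and 23.9 RPM in 4sU and 49.9, 37.4, 54.3 and 36.2 in Ft and rose by 0.92 (SE 0.20, adjusted p = 0.00283 by edgeR). Ft was higher in 4 of 4 cultures and the fractions did not overlap. Dis3 (-0.37, adjusted p = 0.143), Exosc10 (0.25, adjusted p = 0.223) and Exosc8 (0.37, adjusted p = 0.0509) did not pass.

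Long and uridine-rich transcripts carry more 4sU. The number of uridines in the longest annotated protein-coding transcript moved with the Ft to 4sU ratio over 10265 genes (slope -0.54 log2 per log2 uridines). That transcript can differ from the isoform sequenced. Of Upf3a reads 85.6% ended 185 nt past its annotated end. Of Btg1 reads 85.5% ended at position 96082261, before the annotated end at 96085447. The effect of this on the adjusted values was not tested. After that slope was taken out, 13 of the 40 members were called, 4 higher and 9 lower, and the medians were -0.26 for members and 0.12 for all genes. The share of all genes called after this step is not given here, so these counts show no excess or lack among the members. Tob1 (-2.19), Tob2 (-1.51), Btg1 (-0.88), Pan3 (-1.02), Upf2 (-0.95), Patl1 (-0.66) and Cnot6l (-0.47) still fell, and Cnot10 (0.61) still rose. Exosc3 (-1.04) and Upf3a (-0.51) fell and Edc4 (0.78), Smg6 (0.71) and Xrn2 (0.52) rose only in the adjusted values. Smg1 turned to 0.10, and Dcp2 (-0.31), Cnot6 (-0.14), Cnot1 (-0.24), Cnot2 (-0.26), Cnot4 (-0.41), Ddx6 (-0.19), Pan2 (-0.48), Xrn1 (-1.07) and Exosc5 (0.13) were no longer called. Without single cultures the calls of Cnot1 (NT 4 h, adjusted p = 0.0573), Pan2 (NT 4 h, 0.0904) and Cnot2 (NT 0 h or NT 4 h, 0.0815 to 0.0849) were lost in edgeR. So were those of Cnot10 (NT 0 h, NT 4 h or AS, 0.0595 to 0.154) and Xrn1 (any of the 4).

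**Figure D3:**
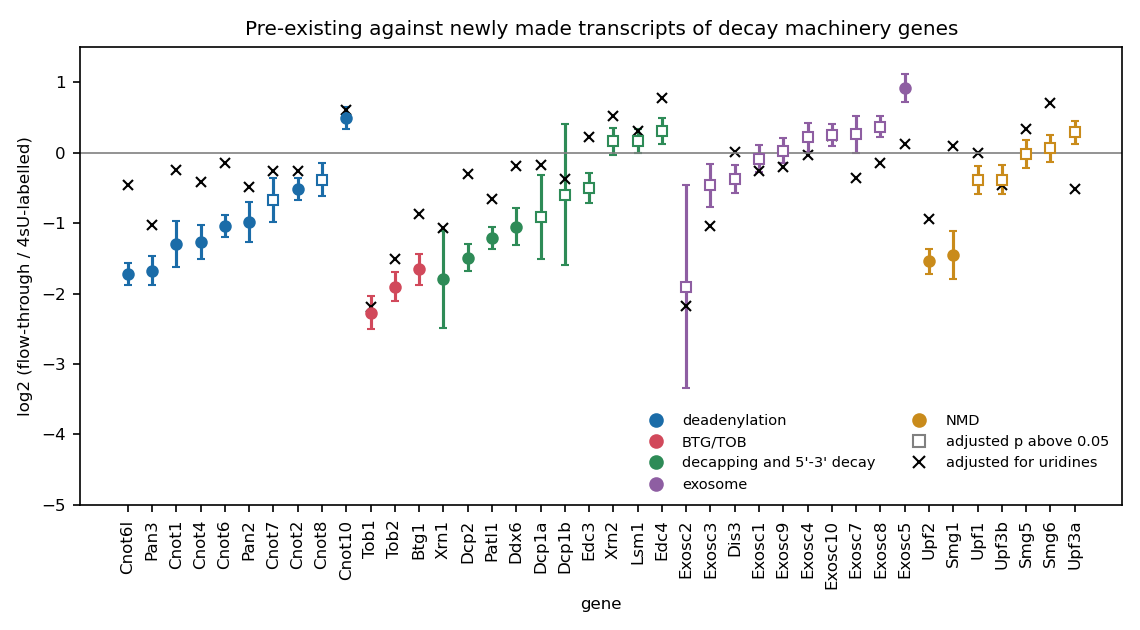
Log2 Ft to 4sU ratio with SE for each tested member, grouped by role. Filled circles mark an adjusted p at most 0.05 and open squares mark members not past the test. Crosses mark values after the uridine slope was taken out. The BTG/TOB genes lie at -1.66 to -2.27, and the exosome genes lie around 0 with Exosc5 highest at 0.92 (0.13 after the uridine slope, when Exosc3 was called lower at -1.04).

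TIA1 is an RNA-binding protein of stress granules that binds U-rich sequence, and the RIP asks which mRNAs it holds in the cytoplasm. Of 41 members tested in NT lysates, 5 were higher and 2 lower in RIP than in input, against 8.91% higher and 9.42% lower of 10182 genes. In AS lysates 4 were higher and 1 lower, against 9.39% and 7.6%. The counts lay near the share over all genes, and the median log2 RIP to input values were 0.00 for members and -0.01 for all genes in NT, and 0.35 and 0.15 in AS. The genes called higher belonged to deadenylation, the BTG/TOB family and decapping, and those called lower to the exosome and NMD. In NMD this was Upf3b in NT alone. Other NMD genes went both ways in NT without a call. Smg6 had 16.0 and 30.6 RPM in input and 41.3 and 65.0 in RIP, and Upf3a 18.3 and 16.4 in input and 15.2 and 3.1 in RIP. No test compared the roles. Parn had too few reads.

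Cnot6 had 98.8 and 44.8 RPM in NT input and 384.9 and 419.8 in NT RIP, and rose by 2.58 (log2, SE 0.37, adjusted p = 0.000686 by edgeR). In AS it had 69.5 and 61.3 in input and 191.1 and 204.1 in RIP (1.59, SE 0.35, adjusted p = 0.0085). Cnot6l had 64.5 and 41.6 in NT input and 263.3 and 315.3 in NT RIP (2.47, SE 0.34, adjusted p = 0.000601), and 66.9 and 52.0 in AS input and 298.6 and 242.6 in AS RIP (2.19, SE 0.34, adjusted p = 0.00129). The RIP and input libraries did not overlap for either gene in either state.

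Pan3 had 12.5 and 15.1 RPM in NT input and 40.3 and 89.6 in NT RIP (2.13, SE 0.42, adjusted p = 0.00408 by edgeR), and 15.5 and 24.4 in AS input and 79.1 and 117.9 in AS RIP (2.31, adjusted p = 0.00285). Patl1 had 8.34 and 15.1 in NT input and 41.0 and 53.7 in NT RIP (2.06, SE 0.46, adjusted p = 0.00811), and 10.5 and 18.7 in AS input and 37.9 and 77.8 in AS RIP (1.95, adjusted p = 0.0115). Both rose in each state with no overlap. Btg1 had 19.9 and 12.8 in NT input and 44.5 and 65.9 in NT RIP (1.75, SE 0.50, adjusted p = 0.0274). In AS, Btg1 had 16.8 and 14.6 in input and 37.2 and 30.9 in RIP and did not pass.

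All 10 exosome genes had negative log2 RIP to input values in NT and 9 of 10 in AS, with medians of -1.12 and -0.88, while 1 passed the test in each state. The medians over all genes were -0.01 and 0.15. The share of all genes with negative values is not given here and no test compared the roles. The count of negative values thus shows no excess in the exosome. Exosc9, a core subunit, fell in NT from 291.5 and 271.8 RPM in input to 194.7 and 109.2 in RIP (-0.95, SE 0.31, adjusted p = 0.0485 by edgeR). Exosc1, a cap subunit, fell in AS from 61.3 and 78.5 to 13.7 and 48.1 RPM (-1.41, SE 0.44, adjusted p = 0.045). The groups did not overlap in either case. The NMD factor Upf3b fell in NT from 87.9 and 75.4 to 21.6 and 46.1 (-1.35, SE 0.40, adjusted p = 0.0319). The difference between the AS and NT enrichments was tested as an interaction, and 0 of 41 members passed, against 0.00982% of 10182 genes (1 gene), with 1 member (Edc4, 1.41, adjusted p = 1) and 410 genes at an unadjusted p under 0.05 and 0 members by DESeq2.

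With 2 lysates a state, several calls rested on single lysates. In NT, Btg1 and Pan3 were lost without NT lysate 2 (1.15, adjusted p = 0.311, and 1.67, adjusted p = 0.0688 by edgeR), Exosc9 without AS lysate 1, AS lysate 2 or NT lysate 2 (0.0868 to 0.419), and Upf3b without AS lysate 1, AS lysate 2 or NT lysate 1 (0.051 to 0.384). In AS, Cnot6 (0.106 to 0.153), Exosc1 (0.0755 to 0.702), Pan3 (0.0689 to 0.0844) and Patl1 (0.138 to 0.222) were lost without either AS lysate, and Cnot6l was not. Without the lysate as a block, 2 members passed in NT and 1 in AS.

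**Figure D4:**
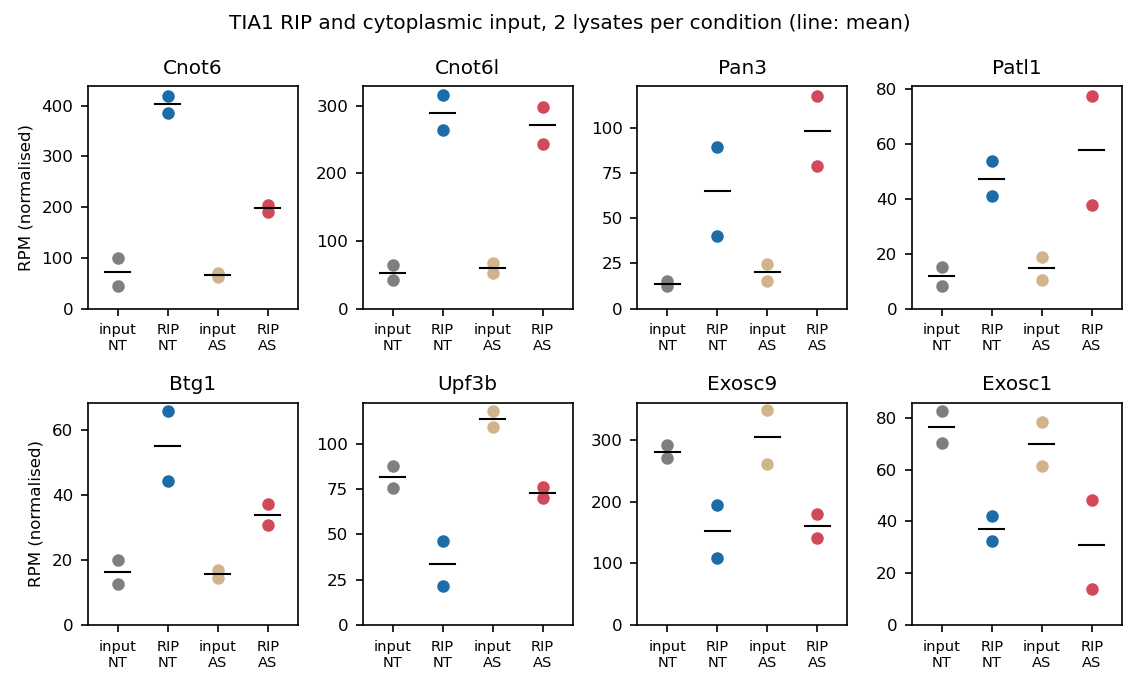
RPM of 8 decay genes in the 8 input and TIA1 RIP libraries of NT and AS lysates, with a line at each mean. Cnot6 and Cnot6l RIP libraries lie at 191.1 to 419.8 RPM, above all of their input libraries at 41.6 to 98.8 RPM, and Exosc9, Exosc1 and Upf3b lie lower in RIP than in the input of the same state.

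The longest annotated 3′UTRs of the enriched genes were long and U-rich, whichever PAS the reads used. Cnot6l had an annotated 3′UTR of 6847 nt with 32 occurrences of TTTTT, Cnot6 one of 3690 nt with 19, Btg1 4170 nt with 32, Pan3 2114 nt with 24 and Patl1 1744 nt with 9. Exosc9 had 418 nt with 0, Exosc1 1002 nt with 3 and Upf3b 834 nt with 3. The isoforms sequenced can be shorter than these annotations. Of Btg1 reads 85.5% ended at position 96082261, and the annotated gene end is 96085447. Of Cnot6l reads 48.3% ended 2945 nt before its distal PAS, which took 22.0%. In Cnot6, Pan3 and Patl1, 81.0%, 92.9% and 86.6% of reads ended at or near the annotated end. The member medians were 1203 nt and 4, and those of all genes 1254 nt and 3. The Spearman correlation of the TTTTT count (transcript strand, non-overlapping matches) with the NT RIP to input value was 0.70 over 41 members and 0.46 over 9613 genes, and with the Ft to 4sU value -0.60 over 40 members and -0.42 over 10141 genes. These are descriptions across genes measured in the same libraries, and the count goes with 3′UTR length, for which the RIP values were 0.57 and 0.43.

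Differentiation of C2C12 moved 22 of 38 decay genes past the test in total RNA (2 MB, 2 MT). Of these, 8 rose and 14 fell in MT, against 31.9% up and 29.2% down of 10662 genes, and the median log2 MT to MB value was -0.41 for members and 0.03 for all genes. In such bulk samples, fewer cells of a kind and less RNA per cell cannot be told apart. Of 11 deadenylation genes 4 rose and 4 fell, of 9 exosome genes 2 rose and 4 fell, of 7 NMD genes 1 rose and 4 fell, of 8 decapping and 5′ to 3′ decay genes 0 rose and 2 fell, and of 3 BTG/TOB genes 1 rose. Parn, Dcp1a, Xrn1 and Exosc2 had too few reads.

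Cnot6l and its paralog Cnot6 moved in opposite directions in total RNA. Cnot6l had 59.9 and 52.5 RPM in MB and 177.7 and 172.6 in MT, and rose by 1.64 (log2, SE 0.12, adjusted p = 3.155e-08 by edgeR). Cnot6 had 63.7 and 65.4 in MB and 34.1 and 33.4 in MT, and fell by 0.94 (SE 0.14, adjusted p = 5.866e-05). The other pair of deadenylase paralogs both rose. Cnot8 went from 23.3 and 26.8 to 44.2 and 50.4 (0.91, SE 0.17, adjusted p = 0.00029) and Cnot7 from 12.6 and 14.4 to 20.5 and 21.6 (0.63, SE 0.22, adjusted p = 0.0227). Cnot7 carries a limit, since its reads upstream of the last exon numbered 11 and 5 in MB and 35 and 18 in MT. Its reads in the last exon numbered 29 and 52 in MB and 34 and 66 in MT, and these overlapped.

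Cnot3, a non-catalytic subunit, had 5.361 and 5.557 RPM in MB and was listed at 0 in MT, from 17 and 22 reads in MB. It entered the test through MB alone, against zeros that the listing minimum of 5 reads can produce, so its p is not given and it supports nothing, although it is 1 of the 14 that fell and of the 4 deadenylation genes among them. Pan3 (-0.53) and Cnot10 (-0.51) fell, and Cnot1 (-0.56, adjusted p = 0.086) did not pass. Cnot4 rose by 1.30 (SE 0.24, adjusted p = 0.000262) from reads at PASs upstream of its last exon, which numbered 19 and 25 in MB and 79 and 85 in MT. With last-exon PASs alone its value turned to -0.36, from 8 and 24 reads in MB and 11 and 14 in MT.

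Tob1 rose from 20.5 and 16.7 RPM in MB to 38.6 and 33.7 in MT (0.97, SE 0.19, adjusted p = 0.000521 by edgeR), and Tob2 (-0.48, adjusted p = 0.116) and Btg1 (0.35, adjusted p = 0.391) did not pass. In NMD, Smg6, the endonuclease, rose from 18.6 and 19.5 to 59.9 and 44.8 (1.45, SE 0.19, adjusted p = 1.308e-05). Its partner Smg5 fell from 199 and 207.9 to 113.9 and 120.1 (-0.80, SE 0.10, adjusted p = 1.307e-05). No MT library overlapped MB in these 3 genes. Upf3b (-0.93, SE 0.14), Upf3a (-0.81, SE 0.18) and Upf1 (-0.73, SE 0.23, adjusted p = 0.0121) fell as well, and Smg1 (0.15, adjusted p = 0.769) did not pass.

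In the exosome, Exosc8 fell most, from 157.7 and 155.8 RPM in MB to 58.2 and 51.7 in MT (-1.51, SE 0.12, adjusted p = 7.875e-08 by edgeR). Dis3 fell from 25.6 and 21.7 to 12.2 and 10.6 (-1.05, SE 0.23, adjusted p = 0.00113), as did Exosc10 (-0.66) and Exosc7 (-0.61). Exosc9 rose from 64.3 and 71.5 to 108.6 and 103.9 (0.64, SE 0.12, adjusted p = 0.000403), and Exosc5 rose by 0.47. MB and MT did not overlap in Exosc8, Dis3 or Exosc9. In decapping and 5′ to 3′ decay, Dcp2 fell from 46.7 and 48.8 to 24.0 and 29.8 (-0.82, SE 0.17, adjusted p = 0.000671) and Xrn2 by 0.64, and Ddx6 (-0.57, adjusted p = 0.0766) did not pass.

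Some of these calls rested on single libraries. Exosc5 was lost without any 1 of the 4 (adjusted p = 0.0711 to 0.105 by edgeR), Cnot7 and Exosc7 without MB replicate 2 or either MT library (0.0521 to 0.0845 and 0.0801 to 0.191), Pan3 without MB replicate 3 or MT replicate 2 (0.1 to 0.271), Upf1 and Xrn2 without MB replicate 2 or MT replicate 3 (0.0948 to 0.0969 and 0.107 to 0.192), and Exosc10 without MT replicate 2 (0.0659).

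The C2C12 cytoplasmic libraries, with NT, AS and RC4 fitted together (4 MB, 4 MT), gave 3 members up and 6 down of 36, against 21.5% and 15.5% of 9957 genes. Smg6 had 7.03, 13.8, 5.62 and 6.16 RPM in MB (NT, NT, AS, RC4) and 30.8, 19.7, 48.9 and 34.0 in MT (2.03, SE 0.38, adjusted p = 0.00238 by edgeR). Tob1 had 12.5 to 18.5 in MB and 35.3 to 54.8 in MT (1.56, adjusted p = 0.000684), and Cnot6l 24.6 to 48.8 and 68.1 to 84.8 (1.02, SE 0.20, adjusted p = 0.00274). Exosc8 had 128 to 172.8 in MB and 24.8 to 48.6 in MT (-1.99, SE 0.19, adjusted p = 3.968e-05). These 4 genes showed no overlap between states. Cnot6 had 48.0, 51.3, 30.5 and 16.0 RPM in MB (NT, NT, AS, RC4) and 30.4, 38.6, 28.0 and 23.8 in MT. The states overlapped and Cnot6 was not called here.

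Exosc1 (-0.88, SE 0.18), Dis3 (-1.33, SE 0.45, adjusted p = 0.0415 by edgeR), Xrn2 (-0.75), Exosc5 (-0.73, SE 0.21) and Smg5 (-0.54, SE 0.16) fell. Exosc5 was thus lower in cytoplasmic RNA and higher in total RNA, and the difference between these sets was not tested. Of the 9 exosome genes tested, 4 fell and 8 had negative values, with a median of -0.72 beside 0.11 over all genes. The share of all genes with negative values is not given here, and no test compared the roles. The call of Dis3 was lost without MBcyto_AS, MBcyto_NT replicate 2, MTcyto_AS or either MTcyto_NT library (adjusted p = 0.112 to 0.169). Those of Exosc5, Smg5 and Xrn2 were lost without MBcyto_AS, MTcyto_AS or MTcyto_NT replicate 1 (0.0585 to 0.0736, 0.0701 to 0.0932 and 0.065 to 0.08).

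**Figure D5:**
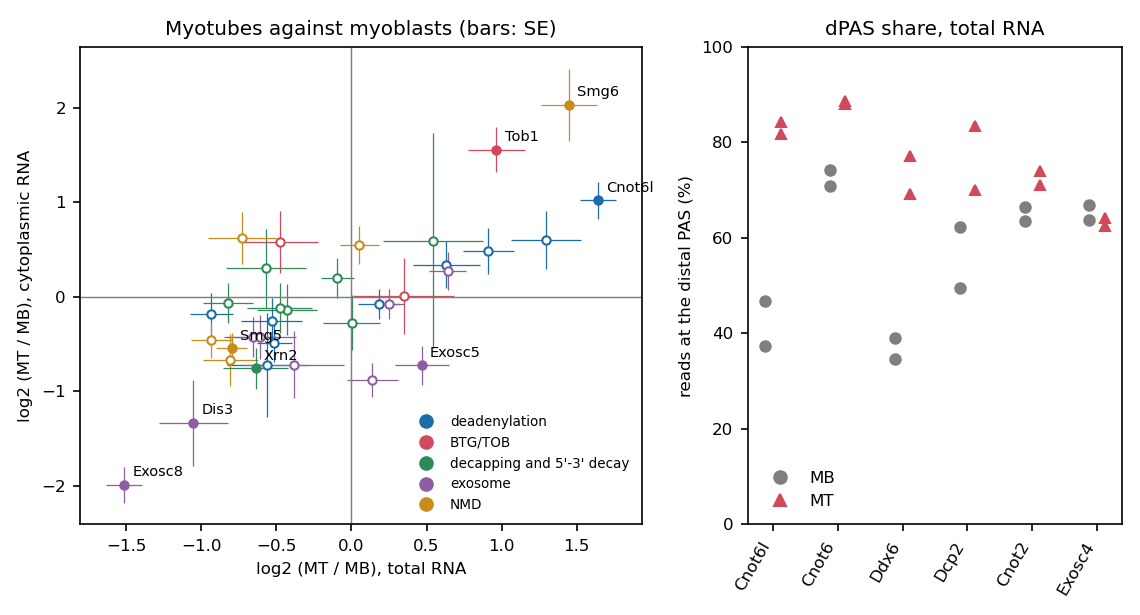
Left, log2 MT to MB in total RNA (x) against cytoplasmic RNA (y) with SE, filled where both passed the test and Cnot3 left out; right, share of distal PAS reads (percent) of 6 genes in each total RNA library (MB gray circles, MT red triangles). Smg6, Tob1 and Cnot6l lie high on both axes, Exosc8 lies low on both, and the Cnot6l distal share is 37.3% and 46.7% in MB and 81.8% and 84.2% in MT.

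The 3′UTR isoforms of the decay genes were compared by the relative expression difference (RED), the change in log2 of distal over proximal PAS (dPAS, pPAS) reads, where a positive value is a longer 3′UTR. In MT against MB, 2 of 13 members tested passed, both longer in MT, against 4.55% of 4394 genes in either direction, and the median RED was 0.52 for members and 0.21 for all genes. Cnot6l had dPAS shares of 46.7% (95% Wilson interval 38.5 to 55.1) and 37.3% (29.6 to 45.7) in MB and 81.8% (78.1 to 85.0) and 84.2% (80.9 to 87.1) in MT. These rest on 50 to 449 dPAS and 72 to 88 pPAS reads per library. Its RED was 2.76 (SE 0.28, adjusted p = 0.0102 by edgeR) over an alternative 3′UTR (aUTR) of 2945 nt between the sites printed above. Cnot6l therefore had both more reads and a longer 3′UTR in MT.

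Cnot6 had dPAS shares of 74.2% (67.3 to 80.0) and 70.9% (64.6 to 76.5) in MB and 88.7% (80.8 to 93.5) and 88.0% (81.1 to 92.6) in MT, a RED of 1.51 (SE 0.33, adjusted p = 0.0496 by edgeR) over 1993 nt. It was lost without any 1 of the 4 libraries (adjusted p = 0.0931 to 0.129), and with the replicate number as a block 0 members passed. Ddx6 (2.21, SE 0.59, adjusted p = 0.081) and Dcp2 (1.44, SE 0.47, adjusted p = 0.125) had positive RED values with no overlap between MB and MT and did not pass, and Cnot2 (0.52, adjusted p = 0.343) and Exosc4 (-0.13, adjusted p = 0.745) did not either. In cytoplasmic RNA, 0 of 10 members passed for MT against MB, against 0.0316% of 3168 genes (1 gene), with 1 member and 393 genes at an unadjusted p under 0.05. Cnot6l had a RED of 1.59 there (SE 0.35, adjusted p = 0.178).

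In Ft against 4sU, 2 of 18 members (Exosc4 and Cnot10) passed, with a shorter 3′UTR in Ft, against 5.92% of 4290 genes, and the median RED was -0.23 for members and -0.43 for all genes. Exosc4 had dPAS shares in 4sU RNA of 82.5% (77.3 to 86.7) and 81.7% (76.8 to 85.7) in NT, 69.4% (59.7 to 77.6) in AS and 81.6% (74.9 to 86.9) in RC4. In Ft they were 48.4% (41.7 to 55.0) and 69.6% (63.3 to 75.3) in NT, 51.7% (45.4 to 57.9) in AS and 44.3% (34.8 to 54.2) in RC4. Ft was lower in 4 of 4 cultures, with a RED of -1.69 (SE 0.36, adjusted p = 0.0443 by edgeR) over 915 nt, and the call was lost without any 1 culture (adjusted p = 0.0696 to 0.195). Cnot10 had 5, 9, 11 and 16 dPAS reads in 4sU RNA (NT, NT, AS, RC4) and was listed at 0 in all 4 Ft libraries beside 155 to 210 pPAS reads, over an aUTR of 231 nt. It passed the read minimum through the 4sU libraries alone, against zeros that the listing minimum can produce, so its p is not given and Exosc4 is the call that could be read. No member's RED call remained when a culture was left out.

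Stress gave no isoform call among the members with the read minimum used here. In AS, 0 of 13 passed in total RNA, 0 of 14 in input and 0 of 10 in C2C12 cytoplasm by edgeR, against 0%, 0% and 0% of all genes, and at an unadjusted p under 0.05 there were 0 members in each and 86, 30 and 131 genes. At RC4 in C2C12 cytoplasm 0 of 10 members passed, against 1.39% of 3168 genes, with 3 members and 488 genes at an unadjusted p under 0.05. With more than 20 reads of each isoform, or with the most proximal and most distal PASs, 1 member passed there. The furthest was Cnot2, a subunit of the NOT module, whose dPAS share was 67.9% and 65.1% in MB NT, 55.0% in AS and 41.9% at RC4, and 63.6% and 67.4% in MT NT, 54.2% in AS and 40.0% at RC4. Both RC4 libraries lay lowest, with a RED of -1.48 (SE 0.36, adjusted p = 0.0892) over 339 nt. Exosc4 (-1.31, adjusted p = 0.154) and Cnot6l (-1.13, adjusted p = 0.257) also had negative values. In TIA1 RIP against input, 0 of 15 members passed in NT or AS or for their difference, against 0%, 0% and 0% of 4068 genes, with 1, 2 and 0 members and 302, 194 and 109 genes at an unadjusted p under 0.05.

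A further list of 31 genes of decay (among them other BTG, LSM and deadenylase genes) gave the neighbors of these members. In Ft against 4sU 7 of 26 rose and 10 fell (23.7% and 25.7% of all genes), in MT against MB 6 of 25 rose and 12 fell (31.9% and 29.2% of all genes), and in total RNA AS 0 of 26 passed. Btg2, a stress-responsive relative of Btg1, rose in C2C12 cytoplasmic AS by 2.26 (log2, SE 0.31, adjusted p = 0.0121 by edgeR) and was 4.16-fold higher in RNA-seq AS and 6.10-fold higher in 4sU AS. Lsm2, a subunit shared by the cytoplasmic and nuclear LSM rings, fell at C2C12 RC4 by 1.67 (adjusted p = 0.00132) and in MT by 2.31, and was 2.87-fold lower at RC4 in RNA-seq. In MT against MB, Lsm6 (-1.72), Lsm3 (-1.52), Lsm4 (-1.1) and Lsm7 (-0.80) fell with it.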

How the data were processed

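The authors deposited 3′READS as read counts per PAS position, 1 file per library, and RNA-seq as read counts per gene. Per the methods of the study, 3′READS reads were trimmed with Cutadapt and aligned with bowtie2 (local mode) to mm9, kept at a MAPQ of 10 or more when 2 or more Ts of the tail were not genomic, and PASs within 24 nt were clustered. RNA-seq was strand-specific, aligned with STAR, and counted over coding sequences. The 2 assays were analyzed apart.

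Here 99725 PAS positions were joined within 24 nt to 83916 clusters and assigned on the same strand to GENCODE genes of NCBIM37, extended by up to 4000 nt past their ends. 370 ambiguous clusters were left out, and 19 RNA-seq names that a spreadsheet had turned to dates matched no member. 3′READS counts ends, so values do not depend on length. RPM are reads per 1000000 PAS reads after TMM scaling. Total counts per library, from 1048335 to 6974664 in 3′READS, set the precision. The numbers of reads behind a share and its 95% interval cover counting error only, since the reads carry no molecular identifiers.

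Replicated comparisons used the quasi-likelihood test of edgeR 4.0.16 (R 4.3.3) after filterByExpr, with Benjamini-Hochberg adjustment over all genes tested and a threshold of 0.05. The SE of a fitted log2 value is its size divided by the root of the F statistic. For 1 library per stressed group a gene needed more than 5 reads in each library of its set and at least 1.5-fold beyond every NT library, with no test. RED was tested as the interaction of isoform and condition on the 2 most abundant PASs with more than 5 reads of each on average. DESeq2 1.42.0, library-total scaling, no filter, last-exon PASs only, leaving out each library, and fits with or without the replicate block were alternatives. Scripts were tested on simulated data. Figures were drawn with matplotlib 3.10.9.

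Total RNA replicate numbers paired the samples: deviations of same-numbered NT and AS libraries from their group means correlated at 0.843 to 0.906 over 8834 genes, and the number was a block. Ft and 4sU share a culture, and RIP and input share a lysate, by their labels and the methods, so culture and lysate were blocks. Replicates within groups differed by 2.46 to 142 chi-square units per degree of freedom, so none was a second copy of another.

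The members and the lists were chosen with earlier results of these data known. Named genes were those past the test (up to 12 with the greatest change per comparison), those past 1.5-fold where there was no test (up to 8), and Cnot1, Cnot6, Cnot6l, Cnot7, Cnot8, Tob1, Tob2, Btg1, Dcp2, Ddx6, Xrn1, Dis3, Exosc10, Upf1, Smg1 and Parn whatever their values. The list of 5 fibroblast genes summed to 4139.7 to 20927.6 RPM in NIH3T3, 15345.9 to 22076.5 in MB and 9940.8 to 12649.7 in MT.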

Additional observations from a re-analysis of the deposited data

Results flagged for a closer look

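Smg6 and Upf2 were singled out because MB and MT went opposite ways in cytoplasmic RNA, and neither difference was tested. In AS, the log2 value of Smg6 against the NT mean was -0.902 in MB, where it had 7.03 and 13.8 RPM in NT and 5.62 in AS, and 0.944 in MT, where it had 30.8 and 19.7 in NT and 48.9 in AS. At RC4, the log2 value of Upf2 was -0.685 in MB, with 56.3 and 57 RPM in NT and 34.5 at RC4, and 0.305 in MT, with 69.3 and 64.4 in NT and 81.7 at RC4. Each rests on 1 stressed library per state.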

How the results depend on the processing

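Counts of members called were recomputed under 242 alternatives of 31 results, and 185 stayed within 1.5 times. Without the replicate block (lysate), TIA1 RIP against input gave 2 members instead of 7 in NT and 1 instead of 5 in AS. With the replicate number as a block, RED in MT against MB gave 0 instead of 2, MT against MB in total RNA 25 instead of 22 and input AS 0 as before, and without the culture block Ft against 4sU gave 15 instead of 18; the block changed no other call count. The same-numbered libraries correlated at 0.679 in input, 0.06 in MT and MB total RNA and 0.218 in the C2C12 cytoplasmic NT libraries.

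With no filter, C2C12 RC4 gave 1 member instead of 2, the time course 10 instead of 2 at RC8 and 7 instead of 3 at RC12. By the 1.5-fold rule in 1 cell state, C2C12 AS had 5 members in MB and 5 in MT instead of 0, and RC4 had 7 and 6 instead of 2. For RED, a minimum of 20 reads gave 1 instead of 2 in Ft against 4sU, 5 instead of 2 in MT against MB, 1 instead of 0 at C2C12 RC4 and 1 instead of 0 in cytoplasmic MT against MB, and the most proximal and distal PASs gave 4 in Ft against 4sU and 1 at C2C12 RC4. Library totals gave 24 instead of 15 at RC4 in RNA-seq. With a 2-fold rule the counts were 1 (from 3) and 2 (from 15) for AS and RC4 in RNA-seq, 2 (from 10) and 5 (from 14) in 4sU, 1 (from 3) and 4 (from 12) in Ft, and 2 (from 4), 2 (from 13), 1 (from 2), 0 (from 3) and 0 (from 8) for AS, RC4, RC8, RC12 and RC24 of the time course. Against the mean of 3 NT libraries, time-course AS gave 18, RC8 13, RC12 13 and RC24 15.

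Leaving out 1 library at a time gave 4 to 10 for RIP in NT, 1 to 8 for RIP in AS, 0 to 1 at C2C12 RC4, 5 to 9 for cytoplasmic MT against MB, 17 to 21 for total RNA MT against MB, 13 to 19 for Ft against 4sU, 0 to 0 for RED in Ft against 4sU and 1 to 1 in MT against MB. In the fold sets it gave 4 to 5 and 16 to 17 for AS and RC4 in RNA-seq, 13 to 14 and 16 to 19 in 4sU, and 6 to 7 and 13 to 16 in Ft. These lone libraries were assumed to vary like the others of the fit. DESeq2 gave 20 for Ft against 4sU and 17 for total RNA MT against MB.

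Of 2976 recomputed values of single members, 2768 kept direction and side of the threshold, 116 lost it, 12 gained it, 76 with no test moved by more than their spread or counting interval, and 4 reversed: Smg1 in Ft against 4sU (0.096, uridine slope), Cnot4 in MT against MB (-0.363, last-exon PASs), and Patl1 (-0.065) and Xrn2 (-0.219) at RC4 in RNA-seq (library totals). The cause of these changes was not tested. Depth limits Parn, Xrn1, Dcp1a, Exosc2 and Cnot3, which had too few PAS reads in several sets.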

Other observations

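Cnot7 and Pan2 ended at different PASs in different sets of the same NIH3T3 total RNA. In replicates 1 and 2, Pan2 had 7 and 36 NT reads and 30 and 32 AS reads upstream of its last exon and was listed at 0 in or past it, while in replicate 4 it was listed at 0 upstream and had 12 NT and 13 AS reads in or past the last exon. Cnot7 showed the same split, with 11 and 45 upstream NT reads in replicates 1 and 2 and 0 in replicate 4, against 5, 0 and 31 in or past its last exon. Cnot4 had 418 NT reads at the PAS 1 nt past its end in replicate 1, 21 in replicate 2 and 12 in replicate 4. Replicate 4 belongs to the time-course set, and what differs between these sets was not tested.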
